A study of Homo sapiens with 8 samples.

Results

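Of 17394 genes counted in leukemia cells given the compound 1035 or its solvent, 31 were nearly unread without the compound and were read clearly with it. A gene was taken when it had under 1 CPM (counts per 1000000 counted reads of the library) in both DMSO libraries and 3 CPM or more in both 1035 libraries. These 31 made up 1.12% of the 2764 genes under 1 CPM in both DMSO libraries. The counts came from total RNA of the established human line SupB15, a precursor B-cell leukemia positive for the Philadelphia chromosome. There were 4 groups of 2 libraries each. The 1035 group received 2 µM 1035 for 46 h and its control received DMSO for 46 h. The 1035+Doxo group received 2 µM 1035 for 36 h and then 0.1 µM doxorubicin for 10 h, and the Doxo group received 0.1 µM doxorubicin for 10 h. The labels do not say whether the Doxo cells received DMSO beforehand or whether 1035 stayed on the cells with doxorubicin, so length of treatment and drug cannot be told apart in any comparison with the Doxo group.

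The title of the series names 1035 as an inhibitor of histone deacetylases (HDACs). These enzymes take acetyl groups off histones, acetylated histones mark open chromatin, and deacetylase complexes are recruited by many repressors that keep genes of other tissues off. The best studied case is the repressor REST, which keeps neuronal genes silent outside the nervous system through CoREST and HDACs. Doxorubicin, an anthracycline, breaks DNA through topoisomerase II. Total counted reads were between 11762453 and 18147726 per library. B-lineage genes were read in all 8 libraries. Some of them held similar levels throughout and others did not. PAX5, a transcription factor of the lineage, lay between 22.3 and 32.8 FPKM (fragments per kilobase of transcript, scaled to depth, as deposited by the authors), and CD79A, a chain of the B-cell receptor complex, between 93.7 and 140 FPKM. IGLL1, a part of the surrogate light chain of precursor B cells, stood at 248 and 298 FPKM in 1035, against 923 and 894 FPKM in DMSO. DNTT, the terminal transferase of lymphoid precursors, stood at 248 and 248 FPKM in 1035, against 461 and 412 FPKM in DMSO. VPREB1, the other part of the surrogate light chain, stood at 129 and 138 FPKM in 1035, against 211 and 200 FPKM in DMSO.

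Promoter windows were at hand for 19 of the 31 genes, from RefSeq on GRCh38.p14, each running from 250 bases before to 50 bases after the gene's start. They are shown for the pair of these 19 genes with the largest rise in the comparison of 1035+Doxo with Doxo, PRAME at chr22:22559216-22559515 (- strand) and SUCNR1 at chr3:151873393-151873692 (+ strand), and for the other pair richest in CpG, KLF2 at chr19:16324576-16324875 (+ strand) and EIF4E3 at chr3:71754724-71755023 (- strand). Sequences run 5′ to 3′ along the gene, and capitals mark the GC box GGGCGG or its reverse complement, the letters that SP1-type factors bind.
PRAME: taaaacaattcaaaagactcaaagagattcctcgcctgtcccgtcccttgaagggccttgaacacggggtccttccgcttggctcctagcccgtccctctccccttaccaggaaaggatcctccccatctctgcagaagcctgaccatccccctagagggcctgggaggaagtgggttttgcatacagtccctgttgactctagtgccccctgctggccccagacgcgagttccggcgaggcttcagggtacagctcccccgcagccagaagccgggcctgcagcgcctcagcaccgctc
SUCNR1: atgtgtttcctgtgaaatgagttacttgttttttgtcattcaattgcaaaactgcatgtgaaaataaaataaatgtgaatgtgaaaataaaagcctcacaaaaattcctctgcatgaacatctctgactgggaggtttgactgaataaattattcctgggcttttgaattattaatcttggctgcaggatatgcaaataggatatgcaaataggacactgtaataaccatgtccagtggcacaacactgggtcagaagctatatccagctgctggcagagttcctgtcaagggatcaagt
KLF2: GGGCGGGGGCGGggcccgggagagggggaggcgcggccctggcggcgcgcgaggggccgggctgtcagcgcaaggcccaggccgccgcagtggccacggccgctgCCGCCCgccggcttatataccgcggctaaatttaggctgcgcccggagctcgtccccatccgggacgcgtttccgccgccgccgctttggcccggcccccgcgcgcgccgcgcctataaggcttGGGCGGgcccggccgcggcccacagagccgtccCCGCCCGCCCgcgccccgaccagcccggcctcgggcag
EIF4E3: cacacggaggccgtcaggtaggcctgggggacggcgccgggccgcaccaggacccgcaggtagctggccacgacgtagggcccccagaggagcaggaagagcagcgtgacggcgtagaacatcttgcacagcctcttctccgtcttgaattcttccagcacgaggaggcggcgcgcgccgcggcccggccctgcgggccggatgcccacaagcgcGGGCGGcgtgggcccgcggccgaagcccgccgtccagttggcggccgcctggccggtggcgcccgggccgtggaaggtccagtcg
The SUCNR1 window held no CpG at all and the KLF2 window held 49. The KLF2 window held 6 GC boxes, some of them overlapping, the EIF4E3 window held 1, and the other pair held none. Over the 19 windows, the ratio of observed CpG to that predicted from the C and G content had a median of 0.662 and ran between 0 and 1.00, while the median of all 35116 promoters in the table was 0.579. A GC box stood in 11 of the 19 windows and in 45.0% of all promoters. CCAAT, counted on both strands, stood in 6 of 19 and in 34.6% of all, and TATAAA, likewise, in 3 of 19 and in 11.5%. The 19 windows thus ran from CpG-free to CpG-dense.

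**Figure D1:**
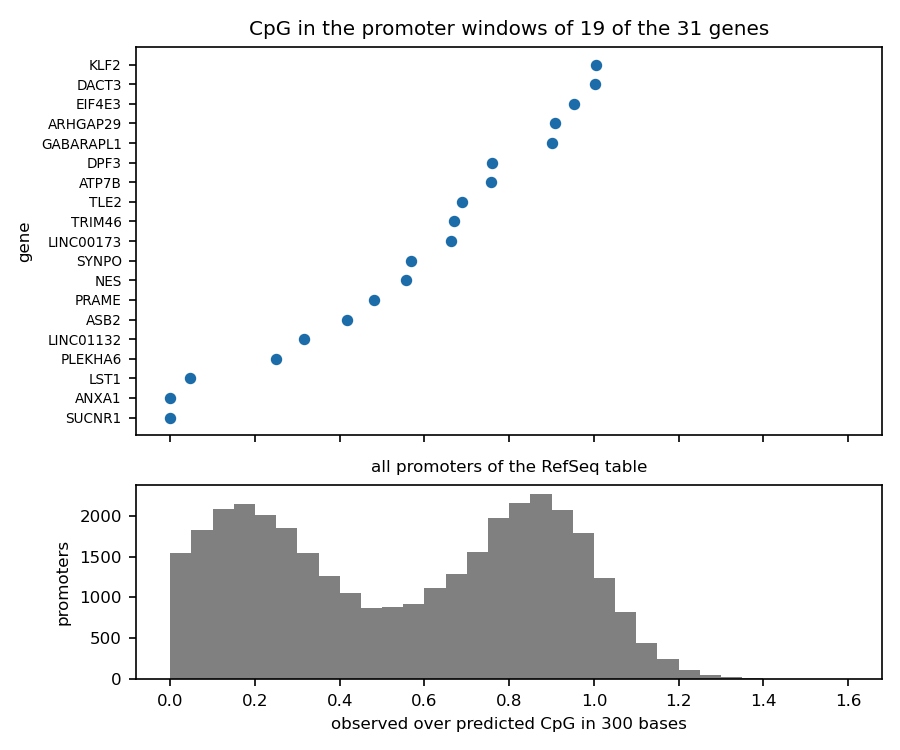
Ratio of observed to predicted CpG (horizontal axis, no unit) in the 300-base promoter windows of 19 of the 31 genes (upper panel, one point per gene) and as a histogram over all 35116 promoters of the RefSeq table (lower panel, number of promoters). The genes spread between 0 for SUCNR1 and ANXA1 and 1.00 for KLF2 and DACT3, over both humps of the histogram.

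The values that chose the genes are given as a description without a test. In DMSO the 31 genes held 0 to 16 reads per library, and in 1035 they held 37 to 176. Most were near-silent rather than silent without the compound, and 2 of the 31 had 0 reads in a DMSO library. PRAME had 0 reads in both, and TLE2 had 0 in 1 library and 2 in the other. Per length, no gene reached 1 FPKM in a DMSO library, and 13 of the 31 reached 1 FPKM in both 1035 libraries. The mean of the 1035 libraries ran between 0.300 FPKM for ARHGAP29 and 6.16 FPKM for FXYD7, so the genes came on at low levels. Summed over the 31 genes, the level was 171 and 180 CPM in the 1035 libraries, against 18.7 and 19.3 CPM in the DMSO libraries. The other genes under 1 CPM in DMSO with a row for both 1035 against DMSO and 1035+Doxo against Doxo numbered 1844. They summed to 1658 and 2089 CPM in 1035, against 987 and 989 CPM in DMSO.

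The thresholds fell within a run of similar genes. Just inside the DMSO limit stood NES, SCN3A and FER1L4, whose higher DMSO library had 0.984, 0.984 and 0.961 CPM. Just outside it stood PEAR1, C10orf128 and ACE, with 1.02, 1.05 and 1.05 CPM in the higher DMSO library and at least 4.36 CPM in each 1035 library. Just inside the 1035 limit stood PRAME, GABARAPL1 and LINC01132, whose lower 1035 library had 3.05, 3.05 and 3.06 CPM. Just outside it stood FBXO44, DOK2 and ITPR3, at 2.98, 2.91 and 2.91 CPM.

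A test was run in the 4 libraries that the choice did not use, 1035+Doxo against Doxo. As said above, 1035 and length of treatment cannot be told apart in this comparison. All 31 genes were higher in both 1035+Doxo libraries than in both Doxo libraries, and all 31 rose in the edgeR quasi-likelihood test at a false discovery rate (FDR) of 5%. Of all 15598 genes tested, 22.8% were called higher, 22.0% were called lower, and 40.1% had both 1035+Doxo libraries above both Doxo libraries. All 31 also rose by at least 2-fold, as 5.51% of all genes tested did. None of the 31 was called lower, and none had a log2 fold change below 0 at an unadjusted p under 0.05. The median log2 fold change of the 31 was 2.43, with a range of 1.23 to 5.31, against a median of 0.01 over all genes tested. The highest value, that of PRAME, rests on 2 reads in the Doxo libraries and depends on the prior count of the fit. All 31 were in the deposited table of this comparison and passed the filter on low counts, so none was lost. Of the other genes under 1 CPM in DMSO, 992 passed that filter, and 275 of these rose while 21 fell. A gene low in Doxo could pass the filter through 1035+Doxo alone, so this balance is in part set by the filter and nothing is read from it. Since bulk RNA was measured, more cells with transcripts and more RNA per cell cannot be told apart.

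**Figure D2:**
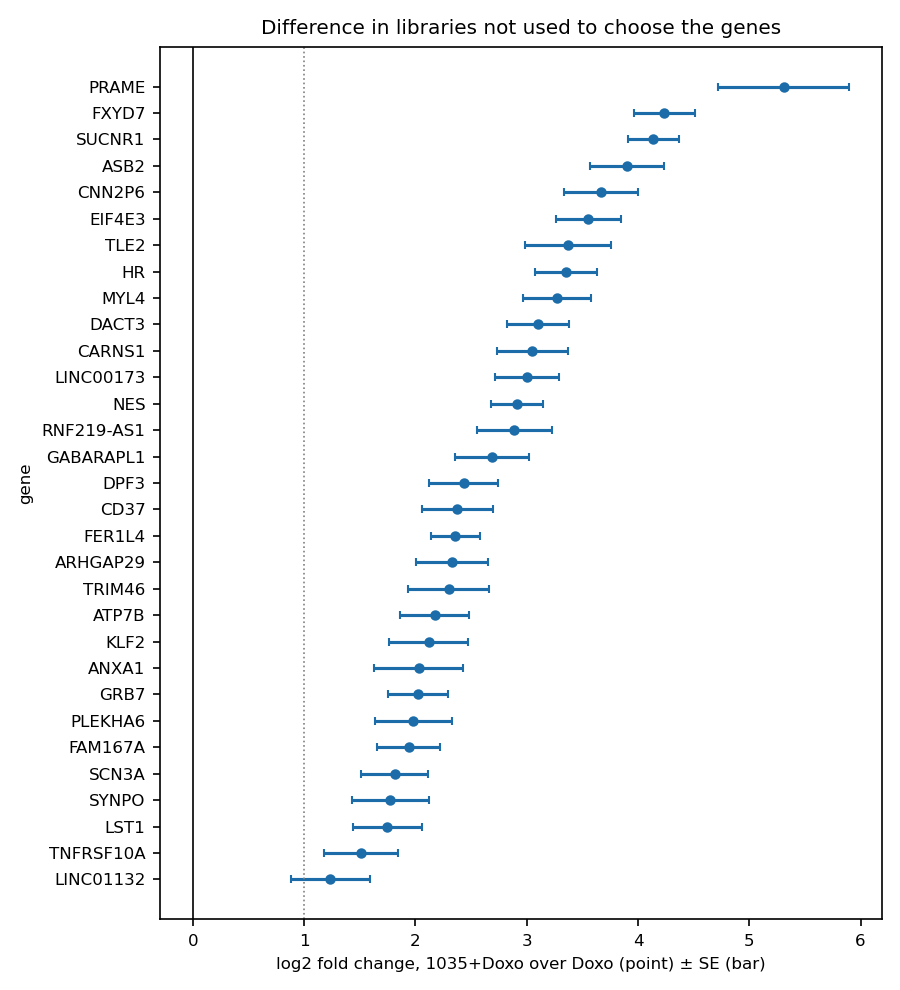
Log2 fold change of 1035+Doxo over Doxo (horizontal axis) for each of the 31 genes, with points for the edgeR estimate and bars for ± 1 SE (2 libraries in each group). The genes run between 5.31 for PRAME at the top and 1.23 for LINC01132 at the bottom, with all points right of the dotted line at 1, a 2-fold rise.

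**Figure D3:**
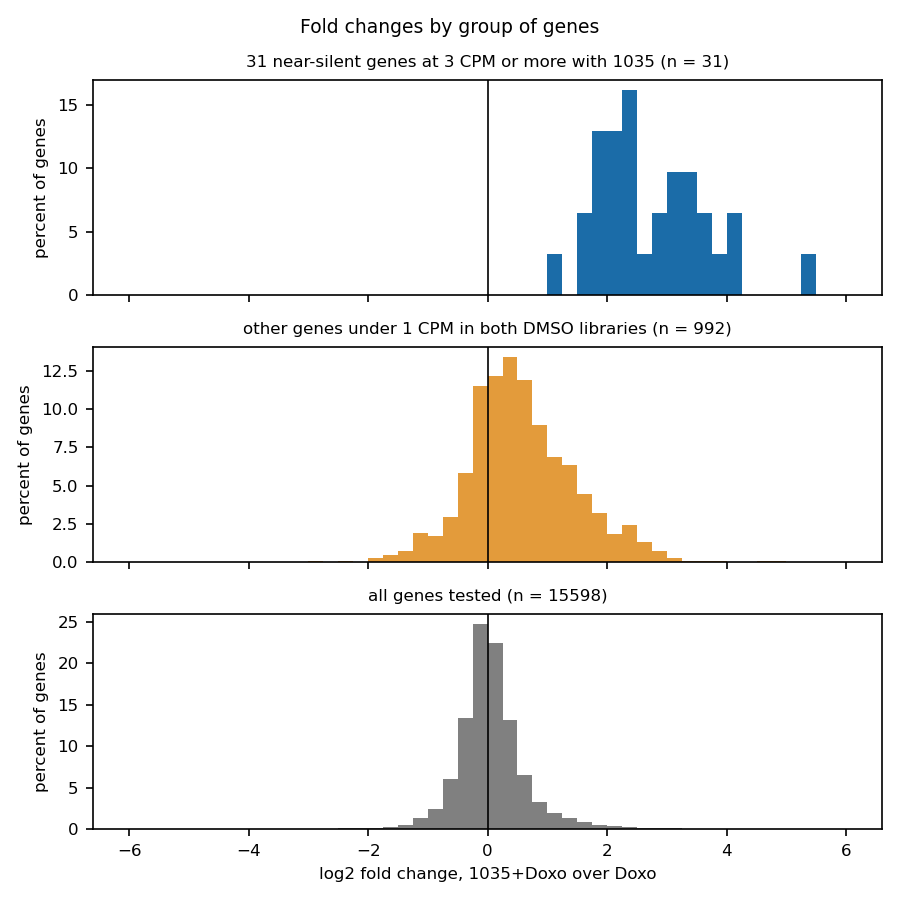
Share of genes (percent, vertical axes) by log2 fold change of 1035+Doxo over Doxo (horizontal axis) for the 31 genes, for 992 other genes under 1 CPM in both DMSO libraries, and for all 15598 genes tested. The 31 genes lie wholly above 1, and all genes tested have a median of 0.01. The other near-silent genes have a median of 0.46, which is in part set by the filter on low counts, since a gene low in Doxo could pass it through 1035+Doxo alone.

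With doxorubicin the 31 genes summed to 171 and 175 CPM in the 1035+Doxo libraries, against 20.7 and 31.9 CPM in the Doxo libraries. Of the 31, 26 were at 3 CPM or more in both 1035+Doxo libraries and none was so in both Doxo libraries. In the Doxo libraries 16 stayed under 1 CPM in both, 12 were at 1 CPM or more in 1 library, and 3 were so in both. Library 2 of Doxo was above library 1 for 26 of the 31 genes, by a median ratio of 1.62, where the median ratio over all genes read in both was 1.00. The other near-silent genes summed to 1709 and 1767 CPM in 1035+Doxo, against 1157 and 1439 CPM in Doxo, so library 2 of Doxo was the higher one there as well. Without this library all 31 genes still rose, with a median log2 fold change of 2.89, and without library 1 of Doxo the median was 2.10.

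**Figure D4:**
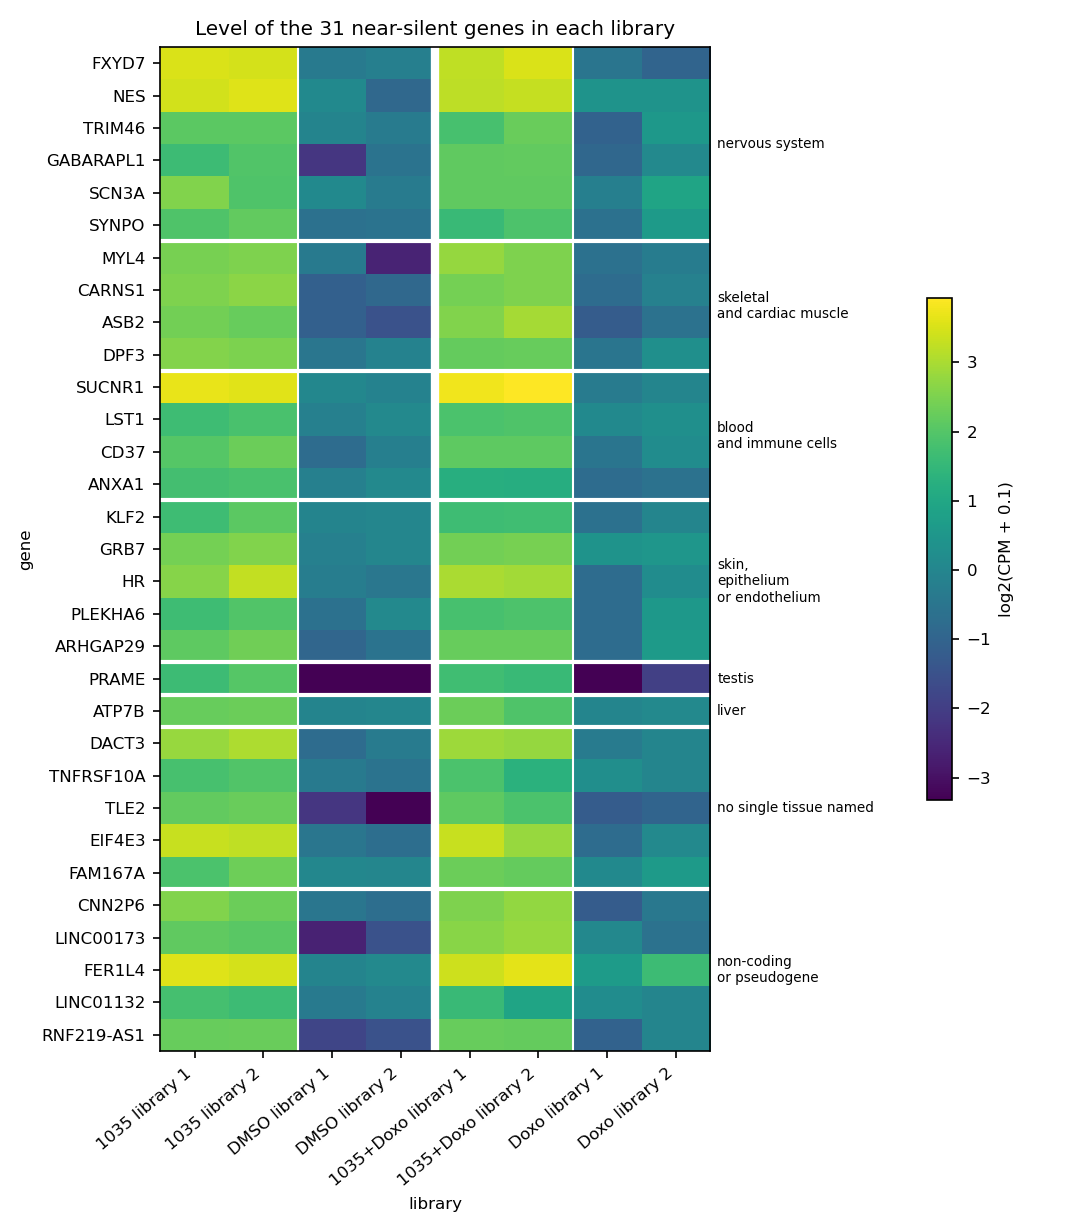
Level of each of the 31 genes (rows) in each library (columns), as colour on a scale of log2(CPM + 0.1), with the genes grouped by the tissue in which they are normally expressed. The columns of 1035 and 1035+Doxo are lighter than those of DMSO and Doxo in every row, and the darkest cells, with 0 reads, are those of PRAME and TLE2.

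The genes belong to many tissues. They were sorted, from general knowledge and after their names were seen, by where they are best known to be expressed. By that sorting 6 belong to the nervous system, 4 to skeletal or cardiac muscle, 4 to blood and immune cells, 5 to skin, epithelium or endothelium, 1 to testis and 1 to liver. Another 5 protein-coding genes have no single tissue, and 5 are non-coding genes or pseudogenes. They lie on 15 chromosomes, with 5 each on chromosomes 1 and 19, and no pair is annotated within 1 Mb of each other.

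Among the genes of the nervous system, FXYD7 had the highest mean level per length of all 31 in the 1035 libraries, at 6.16 FPKM, with CNN2P6 close behind at 5.84 FPKM. In 1035+Doxo the mean was 5.75 FPKM for FXYD7 and 6.81 FPKM for CNN2P6, the reverse order. The gene FXYD7 encodes a brain protein that tunes the sodium-potassium pump. FXYD7 stood at 11.3 and 10.8 CPM in the 1035 libraries, against 0.676 and 0.769 CPM in the DMSO libraries. With doxorubicin, FXYD7 stood at 9.35 and 11.3 CPM in the 1035+Doxo libraries, against 0.606 and 0.403 CPM in the Doxo libraries. With doxorubicin its log2 fold change was 4.24 ± 0.27 (SE; edgeR adjusted p = 3.67e-18), and the groups did not overlap. NES encodes nestin, the intermediate filament of neural progenitors. With doxorubicin NES stood at 9.12 and 9.78 CPM in the 1035+Doxo libraries, against 1.21 and 1.21 CPM in the Doxo libraries, a log2 fold change of 2.91 ± 0.23 (edgeR adjusted p = 4.80e-15). SCN3A encodes a sodium channel of the developing brain. SCN3A stood at 5.81 and 3.72 CPM in the 1035 libraries, against 0.984 and 0.705 CPM in the DMSO libraries. With doxorubicin, SCN3A stood at 4.33 and 4.34 CPM in the 1035+Doxo libraries, against 0.771 and 1.77 CPM in the Doxo libraries. The 1035 libraries differed more here than in most genes. SCN3A rose with doxorubicin (log2 fold change 1.81 ± 0.30, edgeR adjusted p = 2.36e-06), by 1.25 without library 1 of Doxo and by 2.42 without library 2.

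TRIM46 bundles microtubules at the start of the axon. It stood at 3.40 and 4.76 CPM in the 1035+Doxo libraries, against 0.386 and 1.37 CPM in the Doxo libraries. The Doxo libraries differed more than 3-fold from each other, and TRIM46 rose by a log2 fold change of 2.30 ± 0.36 (edgeR adjusted p = 4.12e-06). Without library 1 of Doxo this was 1.52, and without library 2 it was 3.31. SYNPO encodes synaptopodin, an actin-binding protein of dendritic spines and of kidney podocytes. SYNPO stood at 2.94 and 3.66 CPM in the 1035+Doxo libraries, against 0.551 and 1.45 CPM in the Doxo libraries, with a log2 fold change of 1.77 ± 0.35 (edgeR adjusted p = 3.86e-05). For SYNPO it was 1.13 without library 1 of Doxo and 2.50 without library 2. GABARAPL1, an autophagy protein found in many tissues and abundant in brain, stood at 3.05 and 3.81 CPM in the 1035 libraries, against 0.123 and 0.576 CPM in the DMSO libraries. With doxorubicin, GABARAPL1 stood at 4.41 and 4.42 CPM in the 1035+Doxo libraries, against 0.441 and 0.968 CPM in the Doxo libraries. It was 1 of 6 of the chosen genes whose level was higher in both 1035+Doxo libraries than in both 1035 libraries. Of 16496 genes, 20.0% were so. The choice of genes used the 1035 counts, so this order is a description and was not tested.

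Of the muscle genes, MYL4, a myosin light chain of embryonic muscle and of the adult atrium, was the highest per length. MYL4 stood at 5.38 and 5.63 CPM in the 1035 libraries, against 0.676 and 0.0641 CPM in the DMSO libraries. With doxorubicin, MYL4 stood at 6.80 and 5.70 CPM in the 1035+Doxo libraries, against 0.551 and 0.726 CPM in the Doxo libraries. The DMSO libraries held 11 and 1 reads, and the rise with doxorubicin was 3.27 ± 0.31 on the log2 scale (edgeR adjusted p = 7.94e-13). CARNS1 makes carnosine, a dipeptide of muscle and brain. It stood at 5.67 and 6.20 CPM in the 1035 libraries, against 0.369 and 0.448 CPM in the DMSO libraries. With doxorubicin, CARNS1 stood at 5.18 and 5.61 CPM in the 1035+Doxo libraries, against 0.496 and 0.806 CPM in the Doxo libraries. CARNS1 rose by 3.05 ± 0.32 on the log2 scale (edgeR adjusted p = 1.90e-11). ASB2 selects filamins for degradation in muscle and is also known as a gene induced by retinoic acid in myeloid leukemia cells. ASB2 stood at 5.16 and 4.63 CPM in the 1035 libraries, against 0.369 and 0.256 CPM in the DMSO libraries. With doxorubicin, ASB2 stood at 5.80 and 7.65 CPM in the 1035+Doxo libraries, against 0.331 and 0.564 CPM in the Doxo libraries, a log2 fold change of 3.90 ± 0.33 (edgeR adjusted p = 3.60e-14). DPF3 is a subunit of BAF chromatin remodelling complexes that binds acetylated histones and acts in heart and skeletal muscle. It stood at 4.56 and 4.68 CPM in the 1035+Doxo libraries, against 0.606 and 1.13 CPM in the Doxo libraries, and rose by 2.43 ± 0.31 on the log2 scale (edgeR adjusted p = 6.10e-09).

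Among genes of blood and immune cells, SUCNR1, a receptor for succinate, had the largest difference between groups. SUCNR1 stood at 12.8 and 12.2 CPM in the 1035 libraries, against 0.922 and 0.833 CPM in the DMSO libraries. With doxorubicin, SUCNR1 stood at 13.7 and 15.1 CPM in the 1035+Doxo libraries, against 0.716 and 0.887 CPM in the Doxo libraries. All libraries given 1035 lay above 12 CPM and all others under 1 CPM, and the log2 fold change with doxorubicin was 4.14 ± 0.23 (edgeR adjusted p = 1.21e-20). CD37 encodes a tetraspanin of mature B cells. It stood at 3.92 and 4.80 CPM in the 1035 libraries, against 0.492 and 0.769 CPM in the DMSO libraries. With doxorubicin, CD37 stood at 4.25 and 4.25 CPM in the 1035+Doxo libraries, against 0.606 and 1.05 CPM in the Doxo libraries, a log2 fold change of 2.37 ± 0.32 (edgeR adjusted p = 1.94e-08). Per length, CD37 had a mean of 1.04 FPKM in the 1035 libraries. LST1, a transcript of leukocytes, stood at 3.56 and 3.74 CPM in the 1035+Doxo libraries, against 0.992 and 1.13 CPM in the Doxo libraries. ANXA1 encodes annexin A1, an anti-inflammatory protein of myeloid cells and epithelia. ANXA1 stood at 3.27 and 3.47 CPM in the 1035 libraries, against 0.799 and 0.961 CPM in the DMSO libraries. With doxorubicin, ANXA1 stood at 2.24 and 2.21 CPM in the 1035+Doxo libraries, against 0.496 and 0.564 CPM in the Doxo libraries. Both groups were lower with doxorubicin than without, and the log2 fold change of 2.03 ± 0.40 still passed the test (edgeR adjusted p = 3.83e-05).

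In the class of skin, epithelium and endothelium, HR encodes hairless, a corepressor that the hair cycle needs and that itself works with deacetylases. HR stood at 6.03 and 9.43 CPM in the 1035 libraries, against 0.738 and 0.641 CPM in the DMSO libraries. With doxorubicin, HR stood at 7.88 and 7.48 CPM in the 1035+Doxo libraries, against 0.496 and 1.05 CPM in the Doxo libraries. This was the largest rise of the class, at 3.35 ± 0.28 on the log2 scale (edgeR adjusted p = 3.21e-14). ARHGAP29, which turns off RhoA in endothelium and other tissues, stood at 4.64 and 4.68 CPM in the 1035+Doxo libraries, against 0.496 and 1.45 CPM in the Doxo libraries. Its log2 fold change was 2.33 ± 0.32 (edgeR adjusted p = 8.99e-08), and was 1.64 without library 1 of Doxo and 3.15 without library 2. GRB7, an adaptor of growth factor receptors that neighbours ERBB2, stood at 5.10 and 5.36 CPM in the 1035+Doxo libraries, against 1.21 and 1.29 CPM in the Doxo libraries. GRB7 was among the 3 genes at or above 1 CPM in both Doxo libraries, and it rose by 2.02 ± 0.27 on the log2 scale (edgeR adjusted p = 1.89e-08). PLEKHA6, a protein of epithelial junctions, stood at 3.40 and 3.66 CPM in the 1035+Doxo libraries, against 0.496 and 1.37 CPM in the Doxo libraries. It rose by 1.98 ± 0.34 on the log2 scale (edgeR adjusted p = 5.28e-06), by 1.32 without library 1 of Doxo and by 2.75 without library 2. KLF2, a zinc finger factor of endothelium and of resting lymphocytes, stood at 3.09 and 3.15 CPM in the 1035+Doxo libraries, against 0.551 and 0.887 CPM in the Doxo libraries. Its promoter window was the richest in CpG of those printed, while its rise of 2.12 ± 0.36 lay below the median of the 31 (edgeR adjusted p = 2.15e-06).

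PRAME, a cancer-testis antigen whose gene lies within the immunoglobulin lambda locus on chromosome 22, had no read in DMSO. PRAME stood at 3.05 and 3.97 CPM in the 1035 libraries, against 0 and 0 CPM in the DMSO libraries. Against a floor of 3 reads over both DMSO libraries, its level in 1035 was at least 37.0-fold higher. With doxorubicin, PRAME stood at 3.17 and 2.89 CPM in the 1035+Doxo libraries, against 0 and 0.161 CPM in the Doxo libraries, that is, 75 reads against 2. From the summed reads, scaled to depth, the ratio was 46.4 (95% exact binomial interval 12.4 to 390, counting error only), and PRAME rose in the test (edgeR adjusted p = 1.43e-10). Its fitted log2 fold change was 5.31 ± 0.59, and 4.12 without library 1 of Doxo. Without library 2 no Doxo read is left and the fitted value has no meaning. ATP7B, the copper pump of liver that is lost in Wilson disease, stood at 4.79 and 3.74 CPM in the 1035+Doxo libraries, against 0.882 and 0.968 CPM in the Doxo libraries. ATP7B rose by 2.17 ± 0.31 on the log2 scale (edgeR adjusted p = 6.14e-08), and its 4 libraries without 1035 lay between 0.861 and 0.968 CPM.

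Of the genes with no single tissue, TLE2 and DACT3 act against Wnt signalling, TLE2 as a Groucho corepressor of TCF factors and DACT3 on Dishevelled. TLE2 stood at 4.43 and 4.72 CPM in the 1035 libraries, against 0.123 and 0 CPM in the DMSO libraries. These were 118 reads in 1035 against 2 in DMSO. With doxorubicin TLE2 stood at 4.25 and 3.57 CPM in the 1035+Doxo libraries, against 0.331 and 0.403 CPM in the Doxo libraries, a log2 fold change of 3.37 ± 0.38 (edgeR adjusted p = 2.57e-10). DACT3 stood at 7.19 and 6.80 CPM in the 1035+Doxo libraries, against 0.716 and 0.887 CPM in the Doxo libraries, and rose by 3.10 ± 0.28 on the log2 scale (edgeR adjusted p = 2.26e-13). EIF4E3, a cap-binding protein of the eIF4E family, stood at 9.89 and 6.89 CPM in the 1035+Doxo libraries, against 0.496 and 0.968 CPM in the Doxo libraries. The 1035+Doxo libraries differed here more than in most genes, and both lay well above the Doxo libraries. TNFRSF10A, a death receptor for TRAIL, stood at 3.56 and 2.38 CPM in the 1035+Doxo libraries, against 1.10 and 0.887 CPM in the Doxo libraries. Its log2 fold change of 1.51 ± 0.33 was the smallest of the protein-coding genes (edgeR adjusted p = 1.76e-04). FAM167A, the neighbour of the B-cell kinase gene BLK, stood at 4.87 and 4.51 CPM in the 1035+Doxo libraries, against 0.992 and 1.45 CPM in the Doxo libraries.

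Among the non-coding genes and pseudogenes, LINC01132 stood at 2.94 and 1.79 CPM in the 1035+Doxo libraries, against 1.05 and 0.887 CPM in the Doxo libraries. It had the smallest rise of the 31 (log2 fold change 1.23 ± 0.36, edgeR adjusted p = 0.00366), and without library 1 of 1035+Doxo this was 0.81 (edgeR adjusted p = 0.249). FER1L4, a pseudogene of the ferlin family, stood at 10.4 and 12.4 CPM in the 1035+Doxo libraries, against 1.49 and 3.06 CPM in the Doxo libraries. It was the highest of the 31 in the Doxo libraries, and the rise was 2.36 ± 0.22 on the log2 scale (edgeR adjusted p = 5.30e-11). LINC00173 stood at 4.36 and 4.14 CPM in the 1035 libraries, against 0.0615 and 0.256 CPM in the DMSO libraries. With doxorubicin, LINC00173 stood at 6.18 and 6.89 CPM in the 1035+Doxo libraries, against 0.937 and 0.564 CPM in the Doxo libraries, higher in both groups than without doxorubicin. RNF219-AS1, an antisense transcript, stood at 4.64 and 4.51 CPM in the 1035+Doxo libraries, against 0.386 and 0.887 CPM in the Doxo libraries. Its rise was 2.89 ± 0.34 on the log2 scale (edgeR adjusted p = 5.86e-10), and was 2.32 without library 1 of Doxo and 3.48 without library 2. CNN2P6 is a processed pseudogene of CNN2, the actin-binding calponin 2, and stood at 5.64 and 6.63 CPM in the 1035+Doxo libraries, against 0.331 and 0.645 CPM in the Doxo libraries. CNN2 itself had 200 and 164 reads in the 1035+Doxo libraries, against 36 and 43 reads in the Doxo libraries. Short reads can be shared between the copy and its parent, so CNN2P6 is uncertain, as is FER1L4 against other ferlin genes.

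Side by side, the ratio of mean CPM had a median of 9.31 over 30 genes in 1035 against DMSO, the ratio the choice used, and of 5.32 over 31 genes in 1035+Doxo against Doxo. The second ran between 2.44 for LINC01132 and 37.6 for PRAME, where the mean of CPM weights the libraries equally and the ratio of 46.4 given above pools their reads. For FXYD7 the ratio was 20.5 with doxorubicin and 15.3 without it. For SUCNR1 it was 18.0 with doxorubicin and 14.2 without it. For most others the ratio with doxorubicin was the smaller, as the points under the line of equal ratios show. The difference between the ratios was not tested, since the choice of genes fixed the first of them.

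**Figure D5:**
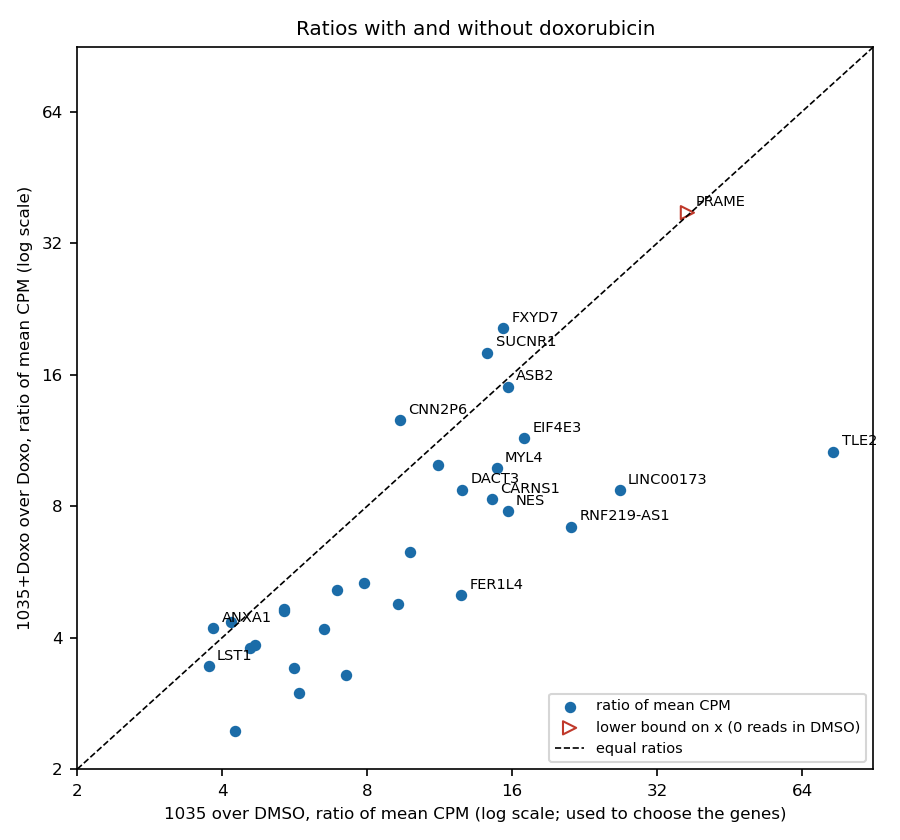
Ratio of mean CPM in 1035+Doxo over Doxo (vertical, log scale) against that in 1035 over DMSO (horizontal, log scale, used to choose the genes) for each of the 31 genes, with the dashed line for equal ratios. The open triangle is PRAME, whose horizontal value is a lower bound. The horizontal value of TLE2 and the vertical value of PRAME rest on 2 reads each without 1035.

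Doxorubicin alone was compared with DMSO as values only, because the choice required low DMSO counts. The mean CPM was higher in Doxo for 25 of the 30 genes with a DMSO read and lower for 5, with a median ratio of 1.34. FER1L4 stood at 1.49 and 3.06 CPM in the Doxo libraries, against 0.861 and 0.961 CPM in the DMSO libraries. LINC00173 stood at 0.937 and 0.564 CPM in the Doxo libraries, against 0.0615 and 0.256 CPM in the DMSO libraries. Both Doxo libraries lay above both DMSO libraries for 12 of the 31 genes and below both for 2, where 26.8% and 16.4% of 16496 genes were so. ANXA1 was the lowest by ratio, at 0.496 and 0.564 CPM in the Doxo libraries, against 0.799 and 0.961 CPM in the DMSO libraries. No gene's higher Doxo library reached its lower 1035 library. The highest mean in Doxo was that of FER1L4, at 2.28 CPM.

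Doxorubicin after 1035 was likewise set beside 1035 as values only, because the choice required high 1035 counts. The ratio of mean CPM had a median of 0.949, with 9 of the 31 genes above 1 and 22 below. LINC00173 had the highest ratio, at 1.54, with 6.18 and 6.89 CPM in the 1035+Doxo libraries, against 4.36 and 4.14 CPM in the 1035 libraries. ASB2 followed at 1.37 and GABARAPL1 at 1.29. ANXA1 had the lowest ratio, at 0.660, with 2.24 and 2.21 CPM in the 1035+Doxo libraries, against 3.27 and 3.47 CPM in the 1035 libraries. LINC01132 was next, at 0.738. Both 1035+Doxo libraries lay above both 1035 libraries for 6 genes and below both for 8, where 20.0% and 15.3% of 16496 genes were so.

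Broader lists of tissue genes were counted in 1035+Doxo against Doxo, beside the 22.8% of all genes called higher and the 22.0% called lower. The counts include 6 of the 31 genes that were on a list, FXYD7, SCN3A, NES, PRAME, MYL4 and SUCNR1. Most listed genes were too low to test, and a gene low in Doxo could become testable through 1035+Doxo alone, so the lists' counts and medians lean towards rises and are a description. Of 89 neuronal genes 19 identifiers could be tested, and 11 rose, 3 fell and 5 did not pass, with a median log2 fold change of 1.02. Those that rose included DNM1, the dynamin of synaptic vesicle recycling (2.62), NRXN2, a neurexin of the synapse (2.17), STX1A, a syntaxin of vesicle release (2.17), and ENO2, the neuronal enolase (1.86). The 3 that fell were 2 identifiers of the tubulin gene TUBB3 (-1.09 and -1.17) and the calcium pump gene ATP2B2 (-1.52). The identifiers of TUBB3 can share reads. The summed level of the neuronal list was 198 and 213 CPM in 1035+Doxo, against 175 and 181 CPM in Doxo. Without FXYD7 and SCN3A, which are among the 31, it was 185 and 197 CPM in 1035+Doxo, against 174 and 179 CPM in Doxo.

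Of 6 tested genes of testis and germline 3 rose, PRAME, TEX19 (2.71) and TDRD1 (2.04), the last a protein of the piRNA pathway. HSPA1L (0.38), SYCP3 (-0.13) and TSSK6 (-0.61) did not pass. The median log2 fold change of the 6 was 1.21, and it leans on PRAME, chosen for its levels in 1035 and DMSO. Their list summed to 35.4 and 39.1 CPM in 1035+Doxo, against 10.7 and 11.6 CPM in Doxo. Without PRAME the sums were 32.2 and 36.2 CPM in 1035+Doxo, against 10.7 and 11.5 CPM in Doxo. Of 11 endothelial genes 7 rose and 1 fell (median 0.75), with CDH5, the cadherin of endothelium, at 1.72 and ROBO4 at -0.56. Of 13 stromal genes 7 rose and 3 fell (median 0.56), with the collagen gene COL1A1 at 2.19 and IGFBP7 at -1.24. Of 9 muscle genes 3 rose, MYL4, MYBPC2 (2.56) and MYH3 (0.33), and LDB3 (-0.64) fell (median 0.26). Of 6 glial and progenitor genes 4 rose (median 0.56), NES among them. Among 7 T and NK cell genes (median 0.07) TCF7 (3.15), TBX21 (0.58) and KLRK1 (0.54) rose and ZAP70 (-0.69) fell.

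The remaining lists held fewer of their members at testable levels or moved both ways. Of 10 myeloid genes 4 rose and 3 fell (median 0.52). Of 7 erythroid and megakaryocyte identifiers, 2 of them of the gene ITGB3, 2 rose and 2 fell (median 0.14). Of 5 epithelial genes 2 rose and 1 fell (median -0.04), of 4 liver and kidney genes 1 rose (median 0.26), and of 3 retinal genes 1 rose and 1 fell (median 0.61). Neither of the 2 endocrine genes passed the test (median 0.00). Of 19 precursor B cell genes 4 rose, 10 fell and 5 did not pass (median -0.21). Those that rose were CD22 (0.77), CD79B (0.40), CD79A (0.40) and IKZF1 (0.25). IGLL1 (-1.84), DNTT (-0.80) and VPREB1 (-0.71) were among those that fell. The sum of the precursor B cell list was 5082 and 4993 CPM in 1035+Doxo, against 5856 and 6250 CPM in Doxo. Whether these shifts in lists have a part in the rise of the 31 genes was not tested.

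Some counts could hold reads of overlapping genes, since the strand setting of the counting is unknown. In GENCODE release 29, 21 of the 31 genes overlap another annotated gene, and for 5 of them an overlapping gene had counts in the table of 1035+Doxo against Doxo. FXYD7 shares its strand with AC020907.2, which had 17 and 17 reads in 1035+Doxo, against 3 and 2 in Doxo. TRIM46 lies opposite AL713999.1, with 437 and 404 reads in 1035+Doxo, against 567 and 430 in Doxo. CARNS1 lies opposite PPP1CA, which had 3641 and 3271 reads in 1035+Doxo, against 5579 and 3908 in Doxo, while CARNS1 had 67 and 66 against 9 and 10. RNF219-AS1 runs opposite RNF219 and POU4F1, where POU4F1 had 13487 and 12616 reads in 1035+Doxo, against 13753 and 9205 in Doxo. On its own strand lies AL445209.1, with 94 and 100 reads in 1035+Doxo, against 46 and 25 in Doxo. LST1 lies opposite NCR3, which had 16 and 10 reads in 1035+Doxo, against 3 and 4 in Doxo.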

How the data were processed

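The authors deposited 4 tables, each comparing 2 groups. Per the file headers they hold raw counts of reads per gene, FPKM values, the authors' log2 fold changes and the authors' adjusted p-values. Libraries were stranded and depleted of ribosomal RNA, per the labels' protocols. The submitters' processing notes name the build hg19, Novoalign 2.08.01 and DESeq2 1.4.5 in no stated role. How reads were counted, with which strand setting and gene models, is not given in these sources. The smallest total of a gene's 4 counts in any table was 10, and counts held by 2 tables were equal in all 132880 cases.

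CPM was computed over the counts of each table, taking DMSO and 1035 from one table and Doxo and 1035+Doxo from another. 3 genes, TLE2, ASB2 and PRAME, had no row in the table of Doxo against DMSO. The 2 libraries of a group are independent samples, per the design text. The 4 libraries of 1035+Doxo against Doxo were fitted with edgeR 4.0.16 (R 4.3.3, TMM, filterByExpr, robust quasi-likelihood, two-sided, Benjamini-Hochberg over 15598 genes, FDR 0.05). SE is the log2 fold change over the root of F. The filter removed 1352 of 16950 genes. The fit was tested on simulated data.

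The genes and lists were chosen with earlier results of these data known. Named genes were to be those with the highest FPKM, the largest and smallest fold changes, those changed by doxorubicin, list members and those at the thresholds; the others are named for the tissue that normally expresses them, a choice made after their values were seen. Alternatives were DESeq2 1.42.0, its size factors, no filter, all 8 libraries, a replicate block and leaving out each library.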

Additional observations from a re-analysis of the deposited data

How the results depend on the processing

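The count of 31 genes depends on the limits, the scaling and the genes used. It was 6 with under 0.5 CPM in DMSO and 11 with 5 CPM or more in 1035. These limits are stricter, so their sets had to lie within the 31. The count was 26 with TMM scaling of CPM and 28 over the genes in all tables, and these sets also lay within the 31. The 28 lack TLE2, ASB2 and PRAME, which have no row for Doxo against DMSO. In 1035+Doxo against Doxo, 2097 of all genes were higher by DESeq2 and 2111 in the authors' deposited table, against 3552 with edgeR, and both called 30 of the 31 genes. LINC01132 was the gene not called, with an adjusted p of 0.125 in DESeq2 and 0.118 in the authors' deposited table. Leaving out each library, 30 to 31 of the 31 genes rose, their median log2 fold change was 2.10 to 2.89, and 2578 to 3418 of all genes were higher. With 1 library left in a group, that library is assumed to vary like the other group. With a replicate block, 31 of the 31 rose and 3632 of all genes were higher. Libraries with the same replicate number did not deviate together (correlation 0.02 over 10167 genes), so no shared replicate effect was seen. With 2 libraries per group this cannot show whether the samples were paired. All 8 libraries, on genes in all tables, gave 28 of 28 genes higher. On genes with a row for both 1035 against DMSO and 1035+Doxo against Doxo, a fit chosen after seeing the data gave 31 of 31. Of 338 values for single genes under these alternatives, 335 kept their call and direction and 0 reversed. The depth of 11762453 to 18147726 reads leaves levels without 1035 at 0 to 38 reads per library, so folds of single genes are imprecise.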
